A study of Solanum lycopersicum with 6 samples.

Results

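Among the genes of the tomato leaf transcriptome, 182 were selected because their read counts were at least 3-fold lower in the *kyp* mutant than in the wild type (WT). They were selected on CPM (the counts of a gene divided by the total of its library and scaled up). A gene was taken when its mean over the 3 WT libraries was at least 5 CPM, when its mean over the 3 *kyp* libraries was at most 33.3% of the WT mean, and when every *kyp* library lay below every WT library. Of the 35821 listed genes, 15894 reached the WT minimum, and the 182 are 1.15% of these. The same contrast that is described below chose the genes, so their lower level in *kyp* is a description and carries no test.

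Leaf RNA came from untreated *Solanum lycopersicum* cultivar M82, sampled at an age of 4 weeks from the fourth true leaf after growth in chambers under long days. The *kyp* plants, with 3 biological replicates, carry a mutation of *KRYPTONITE* in the M82 background. The WT plants, also with 3 biological replicates, are M82 without it. The mutant was received from another laboratory, and the sources used here give neither the sequence of its allele nor the number of independent lines. Library totals ranged from 7283885 to 10091231 counts in *kyp* and from 8925379 to 11012421 counts in WT. A signal of 3 counts, taken as the floor, equals 0.297 to 0.412 CPM in *kyp* and 0.272 to 0.336 CPM in WT, and this covers counting error only. Plastid genes for photosynthesis, such as *rbcL* for the large subunit of Rubisco, were present in every library, with 68.2 to 117 CPM in *kyp* and 119 to 259 CPM in WT. Plastid genes together took 0.552 to 0.621% of the counts in *kyp* and 0.652 to 0.881% in WT. With organelle counts left out of the library totals, the rule took the same 182 genes. Nuclear identifiers are not paired with gene symbols in the sources used here, so no function is given for any of the 182 genes and the level of *KYP* itself is not reported.

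KRYPTONITE is a histone methyltransferase that places methyl groups on lysine 9 of histone H3. The dimethylated form, H3K9me2, marks constitutive heterochromatin, holds transposable elements silent and works in a loop with the chromomethylases that keep DNA methylated outside CG sites. Loss of such a silencing enzyme is best known for genes and elements that become expressed, and the genes described here moved the other way. In bulk leaf RNA, fewer cells that express a gene and less RNA per cell cannot be told apart.

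The 182 genes differed widely in level. Their means ran from 0 to 182 CPM in *kyp*, with a median of 4.67 CPM, and from 5.02 to 1116 CPM in WT, with a median of 21.4 CPM. Gene length was not used, so an order by CPM is an order of counts and not of transcript abundance. Together the genes held 0.265, 0.261 and 0.229% of the counts in the *kyp* libraries, against 1.10, 1.40 and 1.04% in the WT libraries. Their median level in *kyp* was 24.8% of WT (interquartile range 15.6 to 29.7%), whereas the median over all 15894 genes was 93.7%. Few were lost altogether. In *kyp*, 87 of the 182 genes kept a mean of at least 5 CPM, 84 lay between 1 and 5 CPM and 11 lay under 1 CPM.

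**Figure D1:**
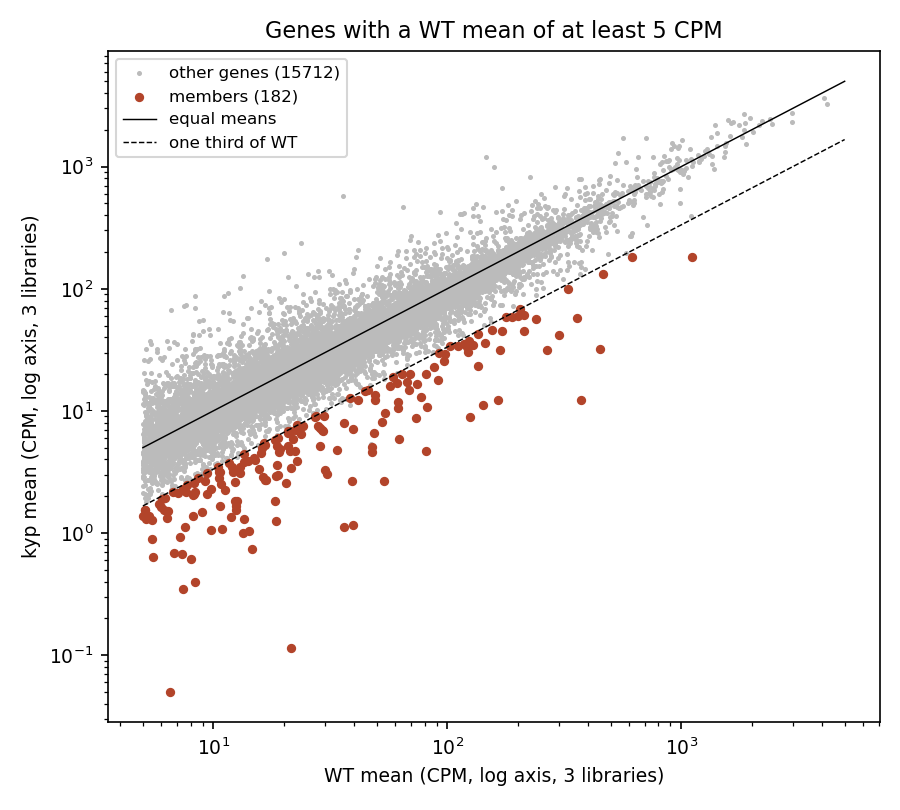
Mean CPM in *kyp* (vertical axis) against mean CPM in WT (horizontal axis), both on log axes, for the 15894 genes with a WT mean of at least 5 CPM. The 182 selected genes (red) lie below the dashed line at 33.3% of WT by construction, and a gene with 0 counts in *kyp* is drawn as the lowest point. Of the red points, 42 keep 30% or more of WT and 71 keep 20 to 30%.

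In WT, 40 of the genes averaged 5 to 10 CPM, 46 averaged 10 to 20 CPM, 40 averaged 20 to 50 CPM, 24 averaged 50 to 100 CPM, and 32 reached 100 CPM or more. As a share of all genes in the same class these are 1.70, 1.37, 0.794, 0.829 and 1.42%, so that the selected genes were most frequent at both ends of the range and least frequent between 20 and 100 CPM. By depth of the reduction, 42 genes kept 30% or more of the WT mean, 71 kept 20 to 30%, 43 kept 10 to 20% and 26 kept less than 10%. The lowest WT library was at least 2 times the highest *kyp* library for 154 of the 182 genes. In 3 genes this ratio was under 1.2, and the closest was Solyc10g085190.2, whose highest *kyp* library had 6.32 CPM and whose lowest WT library had 6.39 CPM.

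Two-sided tests across all genes used edgeR's quasi-likelihood method on 20154 genes, of which 2046, or 10.2%, were lower in *kyp* at an adjusted p (Benjamini-Hochberg) under 0.05. Of the 182 genes, 182 passed the filter on low counts and 181 were among the lower genes, which adds no support because the selection used the same contrast. None was among the 2982 genes, or 14.8%, that edgeR called higher in *kyp* at an adjusted p under 0.05. The selection fixed that outcome in advance as well. The selected gene that edgeR did not call lower was Solyc01g079200.4 on chromosome 1, with an adjusted p of 0.0549. It had 3.71, 0.529 and 2.28 CPM in *kyp* and 5.599, 10.2 and 4.37 CPM in WT. A lack of overlap alone was common, since every *kyp* library lay below every WT library for 4501 genes, or 28.3% of those with a WT mean of at least 5 CPM. Every *kyp* library lay above every WT library for 2209 of them, or 13.9%. Both shares rest on scaling to library totals. Only 4 genes met the limits of level and fold but overlapped between the genotypes.

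The 6 genes with the highest WT means are on 6 different chromosomes. Solyc04g082200.2 on chromosome 4 had 240, 170 and 134 CPM in the *kyp* libraries, against 1147, 1299 and 901 CPM in the WT libraries. It averaged 181 ± 53.8 CPM in *kyp* and 1116 ± 201 CPM in WT (SD, n = 3 each), a level 6.16-fold lower in *kyp*. Solyc03g083770.1 on chromosome 3 kept more, with 165, 178 and 202 CPM in *kyp* and 601, 553 and 690 CPM in WT, or 29.6% of the WT mean. Its spread was narrow in both genotypes. Solyc02g081030.4 on chromosome 2 had 152, 125 and 119 CPM in *kyp*. In WT it had 382, 675 and 335 CPM, so that WT replicate 2 stood apart from the others while all 3 *kyp* libraries were alike.

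The reductions were deeper in the next genes of this order. Solyc11g066390.2 on chromosome 11 had 22.9, 39.9 and 34.5 CPM in *kyp* and 431, 450 and 462 CPM in WT. The *kyp* mean of 32.4 ± 8.65 CPM was 13.8-fold lower than the WT mean of 447.9 ± 15.4 CPM (SD, n = 3 each). Solyc08g006765.1 on chromosome 8 had 10.02, 19.2 and 7.63 CPM in *kyp* and 340, 462 and 313 CPM in WT. This 30.3-fold difference, to 3.31% of the WT mean, was the deepest among the 32 genes with at least 100 CPM in WT. Solyc06g068960.1 on chromosome 6 had 62.6, 60.1 and 48.8 CPM in *kyp* and 304, 436 and 338 CPM in WT, 15.9% of the WT mean. Of the 32 genes in this highest class, 11 kept less than 20% of their WT level.

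**Figure D2:**
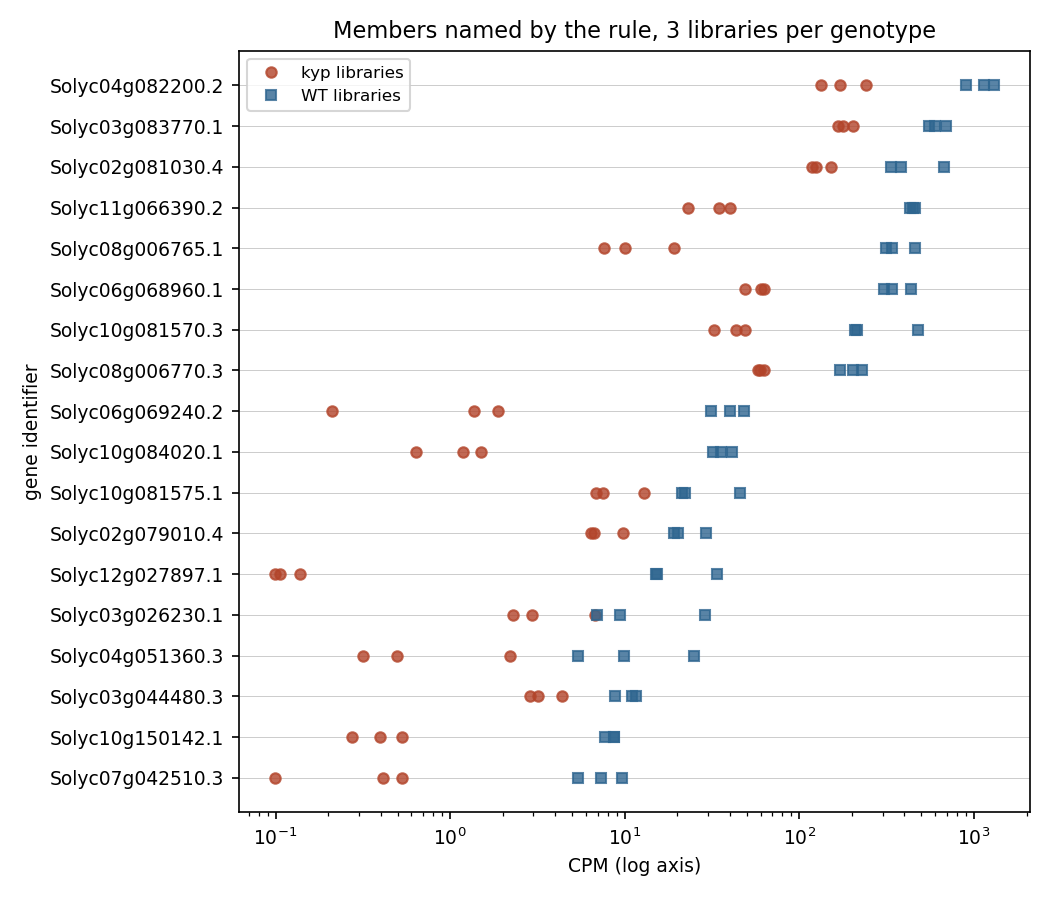
CPM on a log axis in the 3 *kyp* libraries (red circles) and the 3 WT libraries (blue squares) for 18 genes named by rank of WT level, depth of reduction, neighbourhood, closeness to the limit or WT spread. The red circles lie at lower values than the blue squares in each gene, and Solyc12g027897.1 has 1 count in each *kyp* library, while the nearest symbols of Solyc03g026230.1 overlap, at 6.73 CPM in *kyp* and 6.95 CPM in WT.

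Of the 6 deepest relative reductions, with *kyp* means set to at least the floor, 5 were in genes with WT means under 50 CPM and the other was Solyc08g006765.1. Solyc12g027897.1 on chromosome 12 had 1 count in each *kyp* library, against 135, 168 and 302 counts in the WT libraries. Over the 3 libraries together this is a ratio of 187.5 of WT over *kyp* rates, with an exact 95% interval from 63.8 to 912 that covers counting error only. Solyc06g069240.2 on chromosome 6 had 10, 2 and 19 counts in *kyp* and 430, 439 and 277 counts in WT, or 1.16 ± 0.857 CPM in *kyp* and 39.7 ± 8.56 CPM in WT (SD, n = 3 each). Solyc10g084020.1 on chromosome 10 was close to it, with 11, 6 and 12 counts in *kyp* and 285, 453 and 316 counts in WT, 3.07% of the WT mean. Over these 3 genes, the highest *kyp* library had 1.88 CPM and the lowest WT library 15.1 CPM.

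At lower counts the fold is less certain. Solyc07g042510.3 on chromosome 7 had 3, 5 and 1 counts in *kyp* and 65, 106 and 48 in WT. Solyc10g150142.1 on chromosome 10 had 2, 5 and 4 counts in *kyp* and 78, 95 and 69 in WT. Both kept just under 5% of the WT mean, at 4.67 and 4.78%, with *kyp* values around the floor. Only 1 gene had no counts at all in *kyp*, Solyc04g011750.3 on chromosome 4, which had 44, 114 and 38 counts in WT. At the floor of 3 counts per library, *kyp* would be 19.0-fold lower than the WT mean for this gene. That mean leans on WT replicate 2, with 10.4 CPM against 4.93 CPM in replicate 1 and 4.26 CPM in replicate 3. This gene was picked out for its zeros after its values were seen. It and Solyc12g027897.1 were the only members with at most 3 counts in every *kyp* library.

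Near the limit of 33.3%, the last genes inside were Solyc03g044480.3, with 3.48 ± 0.805 CPM in *kyp* and 10.4 ± 1.44 CPM in WT (SD, n = 3 each), and Solyc02g079010.4, with 7.61 ± 1.85 CPM in *kyp* and 22.9 ± 5.39 CPM in WT. The first genes outside were Solyc05g007420.2, with 7.47 ± 1.43 CPM in *kyp* and 22.3 ± 4.57 CPM in WT, and Solyc11g020100.3, with 4.23 ± 1.85 CPM in *kyp* and 12.6 ± 1.88 CPM in WT. The genes inside kept 33.3% of the WT mean and those outside 33.5%, a difference far below their spread. These are 2 of the 337 genes without overlap that kept between 33.3% and 50% of WT.

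The libraries of a genotype did not behave alike over the 182 genes. WT replicate 2 was the highest WT library for 116 genes (63.7%), replicate 3 for 41 and replicate 1 for 25. Over the other 15712 genes with a WT mean of at least 5 CPM, replicate 2 was the highest WT library for 37.8%. Relative to the mean of the other WT libraries, replicate 2 had a median ratio of 1.24 over the 182 genes and 1.01 over the other genes. In 53 of the 182 genes (29.1%) it was at least 1.5 times that mean, against 1.85% of the other genes, and in 21 genes it was at least 2 times as high. Among the *kyp* libraries, replicate 3 was the highest for 35 genes (19.2%), whereas over the other genes it was the highest for 36.5%. Single *kyp* libraries also stood above the mean of the other *kyp* libraries by 1.5 times or more. Replicate 2 did so in 39 of the 182 genes (21.4%) and replicate 1 in 29 (15.9%), compared with 3.00% and 2.11% of the other genes. The same libraries chose the 182 genes, so these shares are a description. The labels do not say what sets WT replicate 2 apart.

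**Figure D3:**
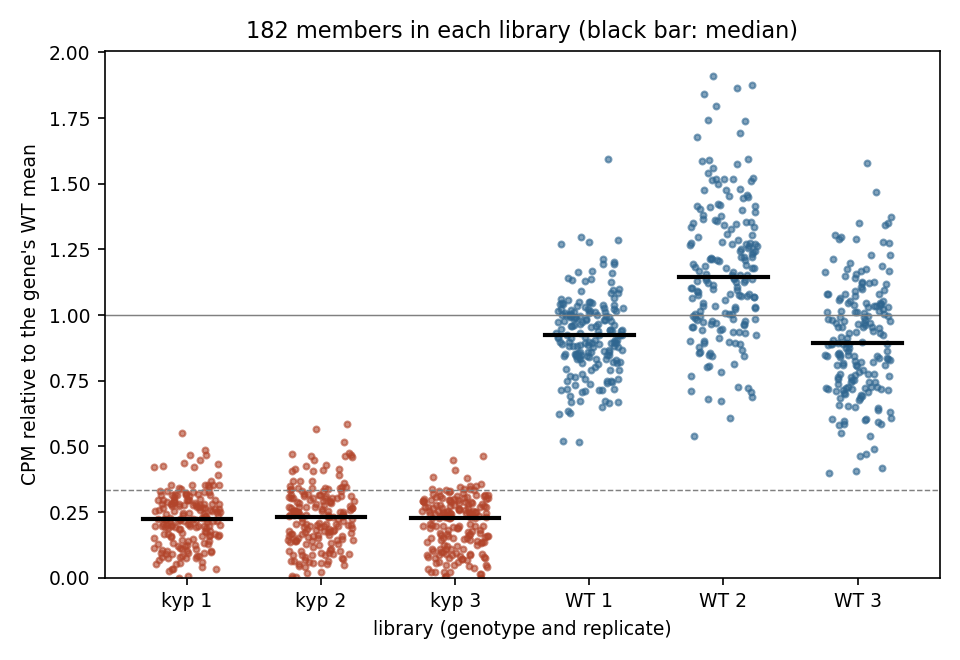
CPM of the 182 genes in each library, divided by the WT mean of the gene; points are genes, black bars are medians, the solid line marks the WT mean and the dashed line 33.3% of it. The medians of the *kyp* libraries lie at 0.222, 0.233 and 0.230, and those of the WT libraries at 0.923, 1.15 and 0.893, with WT replicate 2 above the others.

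Without WT replicate 2, the rule took 160 genes, of which 148 were among the 182. On the remaining WT libraries, 153 of the 182 still met the 3-fold limit, 10 averaged under 5 CPM and the highest ratio was 48.8% of WT. The median over the 182 genes was then 26.0% of WT, close to the 24.8% with all libraries. The 2 genes with the widest spread among WT libraries show what this library adds. Solyc03g026230.1 on chromosome 3 had 6.73, 2.96 and 2.28 CPM in *kyp* and 9.41, 28.7 and 6.95 CPM in WT, so that apart from replicate 2 the genotypes nearly touched. Solyc04g051360.3 on chromosome 4 had 2.197, 0.317 and 0.495 CPM in *kyp* and 9.85, 25.1 and 5.38 CPM in WT, and stayed well apart without it. Spread between replicates was wide for the group in both genotypes, though the same libraries chose the genes. Their *kyp* means had a median of 4.67 CPM, against 29.0 CPM over the other genes. What selection and level add to the spread was not tested. The SD divided by the mean had a median of 0.250 in *kyp* and 0.225 in WT over the 182 genes, compared with 0.102 in *kyp* and 0.0955 in WT over the other genes. At the other extreme, Solyc09g066080.3 had 4.53, 4.33 and 6.14 CPM in *kyp* and 16.1, 16.3 and 16.1 CPM in WT.

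A Solyc identifier gives the chromosome number after its prefix and then a number that rises along most of the listing. Some stretches run otherwise, with Solyc04g040220.3 listed before Solyc04g026020.3. Places and distances below follow the order of the listing. All 12 chromosomes held selected genes, and each of the 182 was listed among genes of its own chromosome. The spread was uneven. Chromosome 2 held 32 of them, or 1.92% of its 1670 genes with a WT mean of at least 5 CPM, followed by chromosome 10 with 19 (1.85%), chromosome 12 with 18 (1.75%), chromosome 6 with 21 (1.55%) and chromosome 3 with 25 (1.51%). Chromosomes 8 and 4 lay near the share of 1.15% over all such genes, with 14 genes each (1.18 and 1.04%). The shares were lower on chromosome 9 with 10 genes (0.870%), chromosome 5 with 8 (0.761%), chromosome 11 with 8 (0.744%) and chromosome 1 with 10 of 2038 (0.491%). Chromosome 7 held 3 of 1183, or 0.254%. Genes of a chromosome are not independent of each other, and these shares were not tested.

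Milder reductions were more evenly spread. For genes without overlap that kept 33.3 to 50% of WT, the share per chromosome ran from 1.75% on chromosome 10 to 2.42% on chromosome 11, with 2.28% on chromosome 2 and 2.03% on chromosome 7. The exchanged rule, which takes genes with at least 5 CPM in *kyp* and at most 33.3% of that in WT, also had another order. Its shares on the 12 numbered chromosomes ran from 2.47% on chromosome 6 to 5.71% on chromosome 5, with 2.89% on chromosome 2 and 4.65% on chromosome 7. Identifiers with chromosome number 0 were left out of this range, where it took 3 of 4 genes. By number and not by share, chromosome 2 had the most selected genes under each of the 14 alternative settings of scaling, limits and libraries. Chromosome 7 had between 2 and 27, the latter of 519 genes at a 2-fold limit. Leaving out single libraries gave it 3 to 9, the most without *kyp* replicate 2, with 9 of 213 genes.

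**Figure D4:**
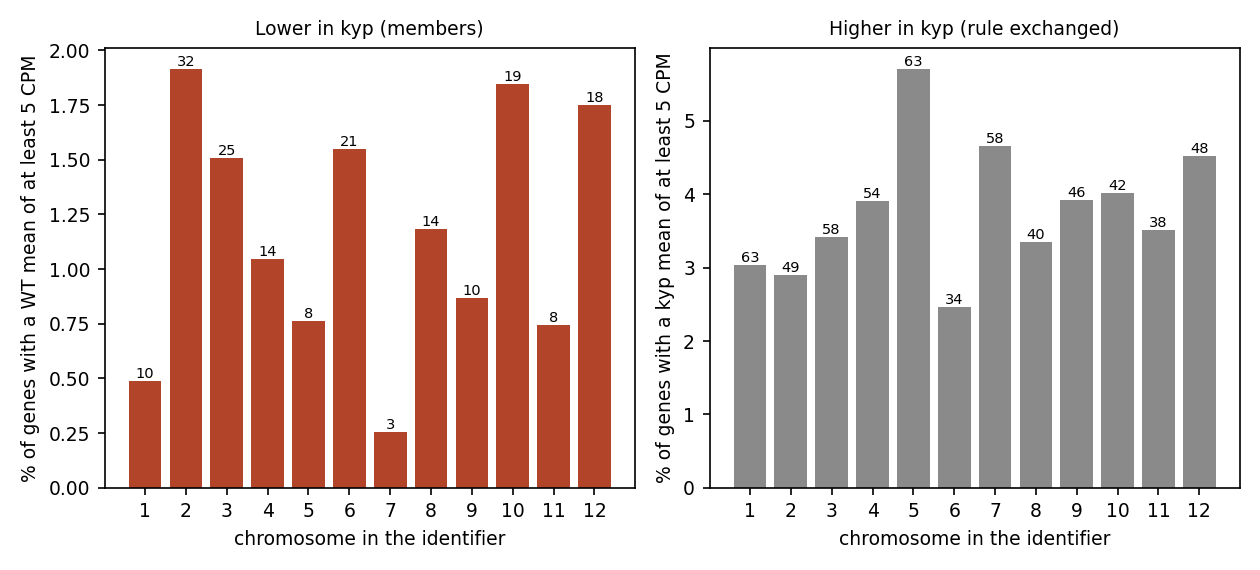
Left, the selected genes as a percentage of the genes with a WT mean of at least 5 CPM, by chromosome number in the identifier; right, genes at least 3-fold higher in *kyp* as a percentage of those with a *kyp* mean of at least 5 CPM. Numbers above the bars are gene counts. On the left chromosome 2 is highest with 32 genes and chromosome 7 lowest with 3, on the right chromosome 5 is highest with 63 and chromosome 6 lowest with 34.

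On chromosome 2 the selected genes were densest in the middle of the listing. When the listing was cut into 5 equal parts, the third held 14 of 377 genes (3.71%) and the others 0.571 to 1.71%. The third part also had the highest share on chromosome 12 (3 of 84, 3.57%), chromosome 3 (10 of 317, 3.15%) and chromosome 10 (3 of 100, 3.00%). On chromosome 10 the second part had as many, 3 of 105 (2.86%), so these shares rest on few genes. It was not so on chromosome 6 (1.14%) or chromosome 7 (0.429%). The remaining chromosomes were not looked at singly in this way, and no pattern along the listing was tested. The 32 genes of chromosome 2 ranged from 5.02 to 464 CPM in WT. Solyc02g070890.3, chosen here after its values were seen, had the deepest reduction among them, with 11.7, 9.73 and 12.1 CPM in *kyp* and 127, 202 and 97.4 CPM in WT. The 3 genes of chromosome 7 were Solyc07g042510.3, described above, Solyc07g008010.4, with 4.91 ± 0.929 CPM in *kyp* and 19.2 ± 4.61 CPM in WT, and Solyc07g008210.4, with 3.42 ± 1.58 CPM in *kyp* and 21.5 ± 2.10 CPM in WT (SD, n = 3 each). Over all chromosomes, the share of selected genes was 1.37, 1.14, 1.73, 1.00 and 0.732% in the 5 successive parts of the listing.

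Selected genes seldom stood side by side. In the full listing, 10 of the 182 (5.49%) were next to another one, in 5 runs of 2 genes, and no run was longer. The median distance between successive selected genes of a chromosome was 88 listed places. Among the genes with a WT mean of at least 5 CPM at 1 place from a selected gene, 5% were themselves selected, and this share fell to 3.43% at 2 places, 2.45% at 3, 2.22% at 4 and 2.15% at 5. From 6 to 10 places it lay between 0 and 1.04%, at or under the share of 1.15% over all such genes. Allowing up to 5 listed genes in between, 25 of the 182 fell into 12 groups of 2 or 3.

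**Figure D5:**
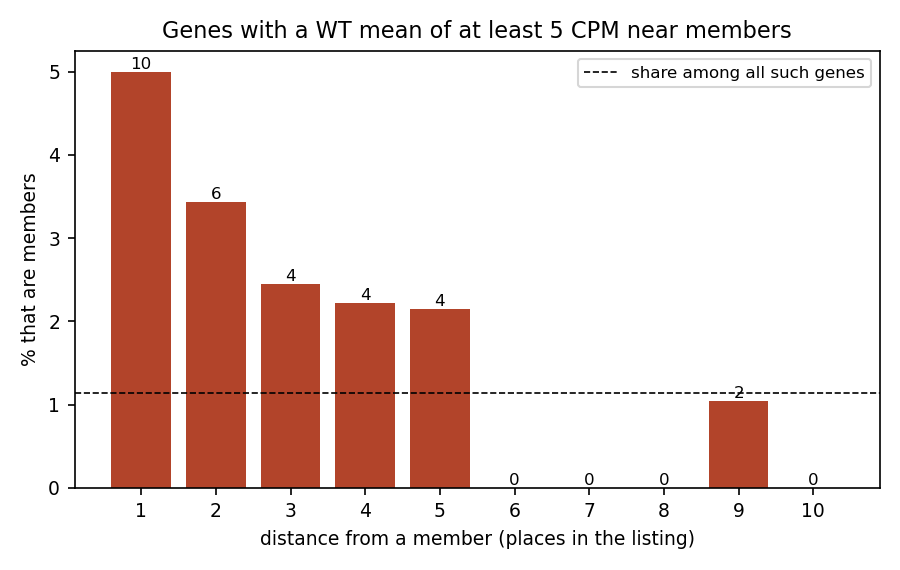
Share of genes with a WT mean of at least 5 CPM that are themselves selected, by distance in listed places from a selected gene, with the number of selected genes met above each bar (each run of 2 neighbours is counted from both sides). The dashed line is the share of 1.15% over all such genes; bars at 1 to 5 places lie above it and those at 6 to 10 places do not.

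Neighbours in a run differed in level and often in depth of reduction. On chromosome 8, Solyc08g006765.1, with its 30.3-fold reduction, stood next to Solyc08g006770.3, which had 63.0, 58.3 and 59.2 CPM in *kyp* and 204, 227 and 170 CPM in WT, or 30% of the WT mean. On chromosome 10, Solyc10g081570.3 had 49.0, 43.6 and 32.6 CPM in *kyp* and 207, 478 and 214 CPM in WT. Its neighbour Solyc10g081575.1 had 12.9, 6.87 and 7.53 CPM in *kyp* and 21.2, 45.8 and 22.2 CPM in WT, with WT replicate 2 the highest library in both genes. Reads from overlapping genes could be shared between such neighbours, since gene positions were not used here and the strand setting of the counting is not given in the sources used here. The other runs were Solyc01g006670.2 with Solyc01g006680.4 (16.3 and 22.2% of WT), Solyc10g052490.2 with Solyc10g052500.2 (11.9 and 17.0%) and Solyc04g007200.4 with Solyc04g007210.3 (30.9 and 32.5%).

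When only genes with a WT mean of at least 5 CPM were listed, 13 of the 182 stood next to another one, and the longest run had 3 genes on chromosome 3. In it, Solyc03g083720.1 had 7.12 ± 3.25 CPM in *kyp* and 39.4 ± 1.59 CPM in WT, Solyc03g083730.1 had 4.65 ± 0.723 CPM in *kyp* and 80.8 ± 11.8 CPM in WT, and Solyc03g083770.1 had the 182 ± 18.6 CPM in *kyp* and 615 ± 69.1 CPM in WT given above (SD, n = 3 each). The reduction was deepest in the middle gene, at 5.76% of WT.

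Genes around the selected ones were close to the rest of the genome. At 1 place, the 189 genes with a WT mean of at least 5 CPM that were not selected had a median of 89.1% of WT, and for 33.9% of them every *kyp* library lay below every WT library. At more than 10 places these values were 94.0% and 27.3% over 14110 genes, beside 28.3% over all such genes. At 1 to 10 places together they were 93.5% and 29.3%. In the other direction, 6 of the 182 genes stood next to a gene that the exchanged rule takes. That rule takes 603 of the 35821 listed genes, and each of the 182 has a place on either side. About as many such neighbours would come from numbers alone, and the count was not tested. Solyc09g066080.3 on chromosome 9, at 30.9% of WT, had such a gene on either side. Solyc09g066070.4 had 207, 229 and 260 counts in *kyp* and 0 in each WT library, and Solyc09g066085.1 had 34, 59 and 62 counts in *kyp* and 0 in each WT library.

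By class of identifier, all 182 were Solyc genes. No gene with a TomatoPan identifier was among them, but only 64 of the 1768 listed reached 5 CPM in WT. Likewise none of the 58 plastid and 5 mitochondrial genes at that level was selected. Numbers that end in 0 are the regular steps of the Solyc series, and 174 of the 182 had one, or 1.14% of the 15320 such genes with at least 5 CPM in WT. The other 8 had numbers that end in another digit, off the regular steps, which is 1.79% of 447. Of these, Solyc10g150142.1 and Solyc03g150147.1 carry numbers well above those of the selected genes listed before and after them. The exchanged rule took 465 genes of the first class (2.99%) and 131 of the second (23.7%).

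Of the 8 genes with numbers off the regular steps, 4 kept less than 10% of the WT mean, compared with 22 of the 174 others (12.6%). These 4 were Solyc12g027897.1, Solyc08g006765.1 and Solyc10g150142.1, all described above, and Solyc03g096545.1, which had 0.615 ± 0.178 CPM in *kyp* and 8.06 ± 0.614 CPM in WT (SD, n = 3 each). The remaining ones kept between 21.1 and 33.1%. By version, the digit after the point, 42 genes had version 1, or 2.46% of the genes of that version with at least 5 CPM in WT, 26 had version 2 (1.15%), 80 had version 3 (1.05%) and 34 had version 4 (0.811%). The share thus fell from version 1 to version 4. It did so under the exchanged rule as well, where the shares were 12.03, 3.62, 2.45 and 2.35%.

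The exchanged rule took 603 genes, or 3.71% of the 16248 with a *kyp* mean of at least 5 CPM. Thus 3.31 genes were at least 3-fold higher in *kyp* for each gene that was at least 3-fold lower. This ratio rests on scaling to library totals and ran from 3.32 to 4.10 under other scalings. The sets differed in how far the lower genotype went down. Among the 182 genes, the lower genotype, *kyp*, was under 0.5 CPM in 4 (2.198%), and 26 genes (14.3%) were at least 10-fold lower. Among the 603 genes, the lower genotype, WT, was under 0.5 CPM in 216 (35.8%), and 270 (44.8%) were at least 10-fold apart. Of the 603 genes, 97 (16.1%) stood next to another gene of their set, with a longest run of 4. For the 182 genes these values were 10 (5.49%) and 2. A larger set meets itself more often, so these shares do not show that the 603 cluster more. All these counts are from the same libraries and were not tested.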

How the data were processed

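Counts per gene were analysed for 3 *kyp* and 3 WT leaf libraries. The authors deposited counts, whole numbers of reads per gene without normalization. Sources differ on how they were made: the study's methods name Bowtie2 with removal of duplicates and low mapping quality, whereas the submitters' processing notes list HISAT2 2.2.1, SAMtools 1.9 and featureCounts after Trimmomatic 0.38. Spliced reads, near-identical copies and the most abundant transcripts are counted differently by each route. The annotation release is not given in the sources used here.

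CPM were computed from column totals. The members and lists were chosen with earlier results of these data known. The test across genes was edgeR 4.0.16 in R 4.3.3 (quasi-likelihood, TMM, filterByExpr, Benjamini-Hochberg adjustment), and it was checked on simulated counts. Libraries of a genotype differed by more than sampling noise (chi-square per degree of freedom 4.56 to 11.7). No source says which plants were pooled, so p-values weigh the difference between genotypes against the spread between these samples only.

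Named genes were the 6 highest by WT mean, the 6 lowest by ratio with *kyp* set to at least the floor, 2 of the 5 runs of neighbours (all of equal length, so those with the highest summed WT CPM), the genes nearest the limit, the highest of each identifier class and the 2 with the widest WT spread, and any other was named after its values were seen. Of the identifiers, 214 from the organelles but 0 of the 35607 nuclear ones were found in RefSeq's gene table (assembly SLM_r2.1), so planned counts by annotation were not made. Alternatives were DESeq2 1.42.0 and other scalings, filters, limits and libraries. No per-sample column was left unused.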

Additional observations from a re-analysis of the deposited data

How the results depend on the processing

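Over scalings and left-out libraries, 180 recomputed ratios for 20 named genes moved by less than 1 SD. This SD carries the replicate spread of both genotypes into the ratio and is wide in several genes. Leaving out 1 library seldom moves a ratio by that much, so this count says little about stability. The named genes nearest the limit of 33.3% passed it with TMM, at 34.7% of WT for Solyc03g044480.3 and for Solyc02g079010.4. Without WT replicate 2, Solyc03g026230.1 kept 48.8%, Solyc10g081575.1 42.0%, Solyc02g079010.4 38.5% and Solyc02g081030.4 36.8% of WT. Solyc04g051360.3 kept 3.03% without *kyp* replicate 1 and 13.2% without WT replicate 2, and Solyc03g026230.1 kept 17.4% without *kyp* replicate 1. The number of selected genes was 160 with TMM scaling, 158 with upper-quartile scaling and 182 without organelle counts, and these were among the 182. The exchanged rule took 643, 648 and 605 genes in the same order. At a 2-fold limit 519 genes were selected, and 95 at a 4-fold limit. At those limits 66 and 4 genes stood next to another one. At the 2-fold limit 24 had numbers off the regular steps and the exchanged rule took 1075 genes. With a minimum of 2 CPM, 16 genes stood next to another one and the exchanged rule took 980. With 10 CPM these were 6 and 364, and 4 genes had numbers off the regular steps. Allowing 5 listed genes in between gave 25 neighbours. These counts follow from the wider or narrower limits.

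Leaving out each library in turn gave 160 to 213 selected genes, of which 148 to 176 were among the 182, with 6 to 12 next to another one. The smallest numbers of both came without WT replicate 2, where 6 genes stood next to another one. Genes lower in *kyp* by edgeR ranged from 1212 to 2203, and 171 to 180 of the 182 were among them. This count was 1320 without *kyp* replicate 1, 1212 without *kyp* replicate 3, 1338 without WT replicate 1 and 1273 without WT replicate 2, and the cause was not tested. DESeq2 called 1813 genes lower, with 182 of the 182. With at least 10 counts in every library 148 of the 182 were tested and 147 were lower.

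Replicate numbers are shared between the genotypes, but deviations of same-numbered libraries correlated at 0.249, 0.0601 and -0.108, so they were not treated as pairs. With the replicate number as a block, edgeR called 1880 genes lower, 181 of the 182 among them.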
